A study of Mus musculus with 4 samples.

Results

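The smooth muscle and Srf contractile program is described here as a set of 34 genes, listed by function: markers of smooth muscle, actin filament proteins, adhesion and LIM proteins, and the transcription factor Srf with its cofactors. A member was taken as every probe set whose platform gene symbol was on the list. All 34 members were measured, by 76 of 45101 probe sets, and they stand among 18193 genes with a named probe set. The rule used no measured value, although the list was drawn up with earlier results of these data known. The cells were mouse embryonic fibroblasts (MEFs), primary cultures grown from embryo torsos of day 13.5 or 14.5 after removal of the head and red organs. Pf1 KO lines 2 and 4 had the genotype Pf1 -/-, and Pf1 WT lines 5 and 6 were Pf+/+. All 4 lines were at passage 2 to 3 and had been kept in 6% oxygen, and the labels do not say which line came from which embryonic day. RNA of each line was hybridised to 1 Affymetrix array. Pf1, encoded by Phf12, is a PHD finger protein of Sin3 corepressor complexes.

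Srf binds a short DNA element, the CArG box, in the regulatory regions of genes for actin and actin-binding proteins. Its cofactors Mrtfa and Mrtfb are held in the cytoplasm by unpolymerised actin and enter the nucleus when actin assembles into filaments, while myocardin, Myocd, is a nuclear cofactor typical of smooth and cardiac muscle. Fibroblasts that take on a contractile state, called myofibroblasts, use the same genes, with smooth muscle alpha-actin as their usual marker.

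Promoter sequences of the members that hold a CArG box are shown first, since Srf binds this element. Members were listed partly as known targets of Srf, so a high share with the box can come from the making of the list. RefSeq promoter windows (assembly GRCm38.p6, 250 bases before to 50 bases after a gene's start) were matched to 30 of the 34 members, in 39 windows. Actg2, Tagln, Myh11 and Myocd were not matched. The box was searched as 2 C, then 6 bases that are each A or T, then 2 G, a pattern that reads the same on both strands. It was found in 7 of 30 members (23.3%) and in 8 of their 39 windows (20.5%). It was present in 1.63% of all windows and in 1.81% of all genes with a window. The other 23 matched members held no exact box there, and sequence outside the windows was not searched. Below are the bases upstream of the start for Srf, Myl9 and Filip1l, which rose in the knockout, and shorter stretches around the box for the others. Capitals mark the box. The Acta2 promoter held no exact box, and its capitals mark 2 boxes with 1 G or C among the 6 core bases, a form found in 8.5% of all windows.
Srf, chr17:46556163-46556412, minus strand: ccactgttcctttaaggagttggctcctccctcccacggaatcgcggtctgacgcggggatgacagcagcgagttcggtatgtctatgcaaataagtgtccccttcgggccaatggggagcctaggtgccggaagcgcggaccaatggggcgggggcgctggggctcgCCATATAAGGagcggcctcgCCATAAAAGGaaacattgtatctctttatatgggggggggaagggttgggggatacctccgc
Myl9, chr2:156775214-156775463, plus strand: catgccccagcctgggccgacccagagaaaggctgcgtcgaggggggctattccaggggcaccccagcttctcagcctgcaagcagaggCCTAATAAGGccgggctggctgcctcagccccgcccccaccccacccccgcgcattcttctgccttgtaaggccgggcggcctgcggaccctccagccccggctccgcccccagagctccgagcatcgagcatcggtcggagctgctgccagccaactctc
Filip1l, chr16:57548992-57549241, plus strand: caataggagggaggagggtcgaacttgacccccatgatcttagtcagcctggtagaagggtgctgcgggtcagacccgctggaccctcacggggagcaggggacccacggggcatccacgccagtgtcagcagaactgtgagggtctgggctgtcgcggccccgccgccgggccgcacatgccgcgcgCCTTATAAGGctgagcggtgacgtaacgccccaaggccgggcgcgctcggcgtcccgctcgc
Acta2, chr19:34255374-34255623, minus strand: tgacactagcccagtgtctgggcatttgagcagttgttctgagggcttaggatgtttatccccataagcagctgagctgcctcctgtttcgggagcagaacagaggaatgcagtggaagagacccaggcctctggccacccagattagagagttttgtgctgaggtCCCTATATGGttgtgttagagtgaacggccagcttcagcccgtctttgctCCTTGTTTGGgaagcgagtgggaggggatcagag
Vcl, chr14:20929148-20929210, plus strand: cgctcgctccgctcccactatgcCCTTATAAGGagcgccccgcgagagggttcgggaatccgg
Cnn2, chr10:79988514-79988583, plus strand: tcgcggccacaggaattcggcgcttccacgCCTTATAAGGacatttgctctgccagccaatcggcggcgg
Fhl2, chr1:43163962-43164022, minus strand: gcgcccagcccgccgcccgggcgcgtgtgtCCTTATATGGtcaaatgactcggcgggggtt
Fhl2, chr1:43196818-43196887, minus strand: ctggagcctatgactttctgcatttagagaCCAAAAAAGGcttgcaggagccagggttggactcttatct
Fhl1, chrX:56779551-56779620, plus strand: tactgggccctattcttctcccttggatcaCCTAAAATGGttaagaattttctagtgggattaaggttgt

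Srf itself held 2 boxes whose first bases lay 20 bases apart, at 82 and 62 bases before its start. Vcl, Cnn2 and Filip1l shared the same box, CCTTATAAGG, at 227, 56 and 62 bases before the start. Of the 7 members with a box, 3 rose in the knockout and 4 did not pass the test, and of the 23 matched members without one, 9 rose. Among all measured genes, 5.21% were called higher, and whether members with and without the box differed was not tested. The members with the box ran from a log2 difference of 0.0068 for Cnn2 to 0.76 for Srf. A match describes the letters of the window and does not show that Srf binds there.

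The deposited values are on a log2 scale, and every probe set had been centred on its median over the 4 arrays. They therefore show how the lines differ at a gene and hold no expression level, and no gene's level can be set against another's. For a gene with 1 probe set the middle 2 of the 4 values mirror each other around 0. The labels do not state that the lines came from separate embryos, and p-values here cover line-to-line spread alone. Differences are Pf1 KO minus Pf1 WT with the standard error (SE) of the limma fit, n = 2 lines per genotype. A gene was called at a limma adjusted p under 0.05 over all 18193 genes. The Phf12 probe set 1434922_at stood at -0.37 and -0.41 in KO lines 2 and 4, against 0.56 and 0.37 in WT lines 5 and 6 (difference -0.86 ± 0.109 SE, limma adjusted p = 0.0213 over probe sets). The other probe set, 1453579_at, overlapped, at -0.0047 and 0.0047 in KO lines and 0.051 and -0.075 in WT lines (0.012 ± 0.0976 SE, limma adjusted p = 0.965). Averaged, the 2 Phf12 probe sets missed the threshold (-0.42, limma adjusted p = 0.0504), and their place relative to the deleted part was not analysed here. Xist, the transcript of the inactive X chromosome, stood at -0.018 and -0.023 in KO lines 2 and 4 and at -0.0079 and 6.39 in WT lines 5 and 6, and the Y-linked Eif2s3y at -0.0014, 0.0014, 0.11 and -3.05 in the same order. WT line 6 thus differed from the other lines in sex-linked transcripts, with Xist higher and the Y-linked transcript lower. The WT lines were therefore unlike each other in these transcripts, whereas the KO lines were alike. The labels give no sex. The count of calls and the median of the members are also given without WT line 6.

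The program was higher in the knockout. Of the 34 members, 15 rose, 0 fell and 19 did not pass the test. Over all genes, 5.21% were called higher and 6.95% lower. Before adjustment, the limma p was under 0.05 for 30 members that were higher and for 0 that were lower. At the same p, 14.3% of all genes were higher (2603 of 18193), and 2765 genes were lower. Both KO lines lay above both WT lines at 32 of 34 members, against 28.7% of all genes. The members' median difference was 0.49, against -0.0027 over all genes, and 33 of 34 differences were positive, against 49.2% of all genes. Among the 15 that rose, the increase ranged from 1.39-fold to 2.72-fold. In these cultures, more contractile cells and more transcript per cell cannot be told apart.

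**Figure D1:**
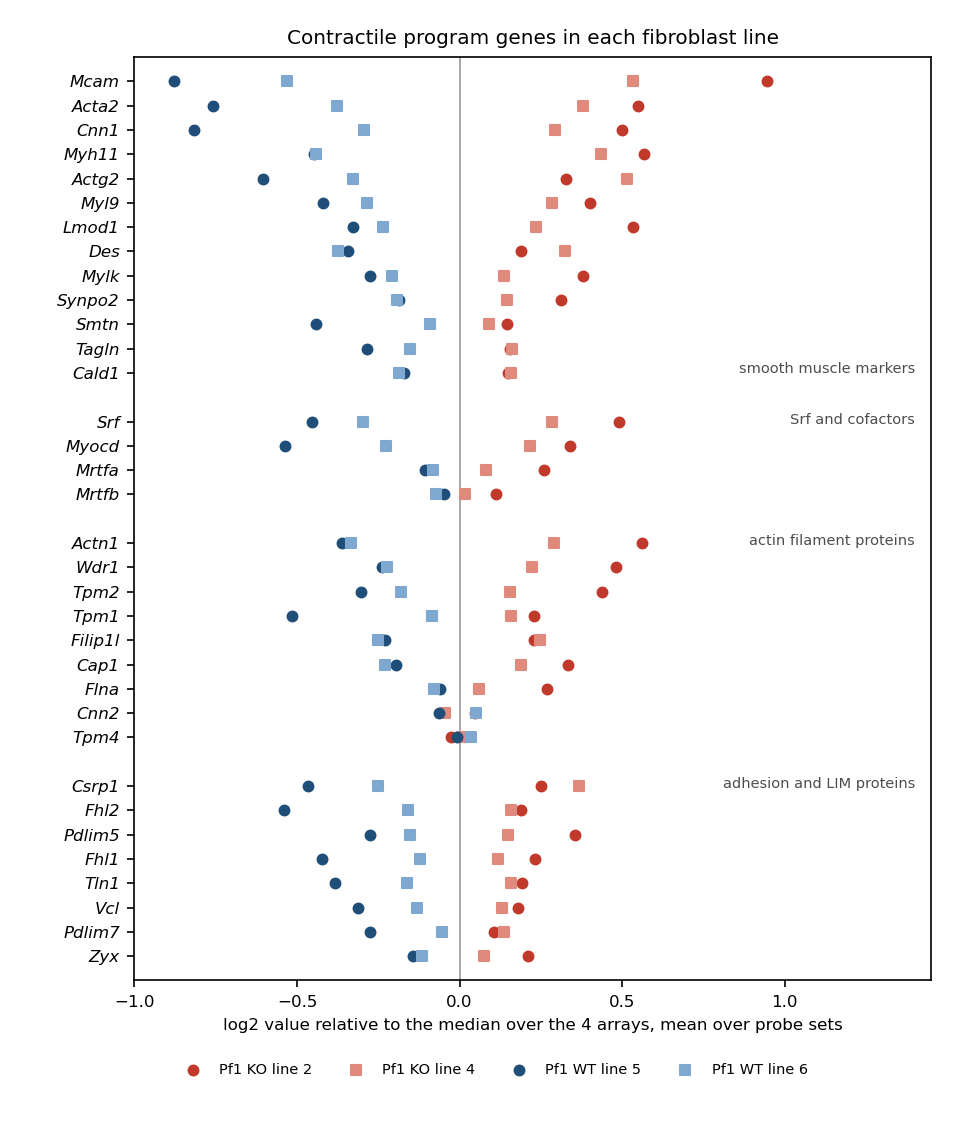
Each row is a gene and each symbol a fibroblast line (red, Pf1 KO lines 2 and 4; blue, Pf1 WT lines 5 and 6), on the log2 scale relative to the median over the 4 arrays, averaged over the gene's probe sets. Genes are grouped by function and ordered by difference within a group; red lies right of blue in all rows but Cnn2 and Tpm4, that is in 32 of 34.

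These calls rest on all 4 lines. Leaving out a line left 1 residual degree of freedom, and limma then called 0 members without KO line 2, 2 without KO line 4 (Mcam and Myh11), 0 without WT line 5 and 0 without WT line 6. Over all genes it called 0, 87, 0 and 0 as higher. At an unadjusted p under 0.05, 19, 26, 25 and 28 members were higher in these fits, beside 8.17%, 9.73%, 11.1% and 15.2% of all genes. The median difference of the members stayed between 0.42 and 0.57, with the highest value in the fit without WT line 6. The difference kept its positive sign in each of these 4 fits for 32 members, and Cnn2 and Tpm4 were the exceptions. Apart from these 2, the difference of 8 members, none of them called, moved by over 1.5 times in 1 of the fits. Without WT line 5 it was 0.28 for Tpm1, 0.21 for Smtn, 0.18 for Pdlim7, 0.33 for Fhl2 and 0.30 for Fhl1. Without KO line 2 it was 0.13 for Flna, 0.17 for Mrtfa and 0.078 for Mrtfb.

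The transcription factors were examined first. Srf stood at 0.49 and 0.28 in KO lines 2 and 4, against -0.45 and -0.30 in WT lines 5 and 6. It rose 1.70-fold (0.76 ± 0.113 SE, limma adjusted p = 0.0240), and each of its 2 probe sets was called on its own (0.65 and 0.87). Both KO lines lay clearly above both WT lines, and the gap between them exceeded the distance between lines of 1 genotype.
Myocd, the muscle-restricted cofactor, stood at 0.34 and 0.22 in KO lines and at -0.54 and -0.22 in WT lines. It rose 1.58-fold (0.66 ± 0.132 SE, limma adjusted p = 0.0405), but its 2 probe sets disagreed in size: 1425978_at differed by 1.16 and 1425808_a_at by 0.16. The latter was not called (limma adjusted p = 0.363 over probe sets). Mrtfa, the actin-regulated cofactor, stood at 0.26 and 0.081 in KO lines and at -0.11 and -0.081 in WT lines, a difference of 0.26 ± 0.0970 SE that did not pass (limma adjusted p = 0.151). Its relative Mrtfb differed by 0.13 ± 0.0841 SE (limma adjusted p = 0.404), with the largest of its 3 probe sets at 0.32. Of the 4 factors, Srf and Myocd were thus called, beside 5.21% of all genes called higher. Whether the increase of Srf and Myocd differed from that of Mrtfa and Mrtfb was not tested.

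Of 13 smooth muscle markers, 8 rose and 5 did not pass, beside 5.21% of all genes called higher. Both KO lines lay above both WT lines for all 13, against 28.7% of all genes. The median difference of the 13 markers was 0.67. Mcam, a cell adhesion molecule of vascular smooth muscle and pericytes, stood at 0.94 and 0.53 in KO lines 2 and 4, against -0.88 and -0.53 in WT lines 5 and 6. It showed the largest difference of the list, 1.44 ± 0.187 SE (2.72-fold, limma adjusted p = 0.0191). By size it ranked 41st from the top among the 18193 genes.
Acta2 encodes smooth muscle alpha-actin and stood at 0.55 and 0.38 in KO lines, against -0.76 and -0.38 in WT lines. The genotypes did not overlap, and WT line 5 was the lowest. Acta2 rose 2.04-fold (1.03 ± 0.153 SE, limma adjusted p = 0.0241). Its 3 probe sets differed by 2.02 (1444105_at), 0.87 (1456658_at) and 0.21 (1416454_s_at), and the last of these was not called (limma adjusted p = 0.258 over probe sets).
Actg2, the enteric smooth muscle gamma-actin, stood at 0.33 and 0.51 in KO lines and at -0.61 and -0.33 in WT lines, and rose 1.85-fold (0.89 ± 0.131 SE, limma adjusted p = 0.0238). Here KO line 4 was the highest, unlike at Mcam and Acta2. The heavy chain of smooth muscle myosin, Myh11, stood at 0.57 and 0.43 in KO lines and at -0.45 and -0.44 in WT lines. It had the smallest p of the list (0.95 ± 0.0888 SE, 1.93-fold, limma adjusted p = 0.0144), and both of its probe sets were called, at 0.51 and 1.38.

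Calponin, Cnn1, an actin-binding protein that restrains myosin, stood at 0.50 and 0.29 in KO lines, against -0.82 and -0.29 in WT lines. It rose 1.93-fold (0.95 ± 0.194 SE, limma adjusted p = 0.0421), with the 2 WT lines 0.52 apart. Without WT line 5 its difference was 0.69 and without WT line 6 it was 1.21. Myl9, the regulatory light chain of myosin, stood at 0.40 and 0.28 in KO lines and at -0.42 and -0.28 in WT lines and rose 1.62-fold (limma adjusted p = 0.0211). Lmod1, which starts actin filaments in smooth muscle, stood at 0.53 and 0.24 in KO lines and at -0.33 and -0.24 in WT lines and rose 1.59-fold (limma adjusted p = 0.0363). Des encodes desmin, the intermediate filament protein of muscle. It stood at 0.19 and 0.32 in KO lines and at -0.34 and -0.37 in WT lines and rose 1.53-fold (limma adjusted p = 0.0231). Its rise came from 1 of 2 probe sets: 1426731_at differed by 1.03, and 1426732_at by 0.20 with overlapping genotypes.

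The 5 markers that missed the threshold all had positive differences. Myosin light chain kinase, Mylk, which activates smooth muscle myosin, stood at 0.38 and 0.14 in KO lines and at -0.28 and -0.21 in WT lines (0.50 ± 0.112 SE, limma adjusted p = 0.0515). Synpo2, an actin-bundling protein, differed by 0.42 ± 0.0943 SE (limma adjusted p = 0.0525). It split by probe set, with 2 of 4 called at 0.75 and 0.69 and the others at 0.15 and 0.091. Tagln, the actin-binding protein SM22-alpha, stood at 0.15 and 0.16 in KO lines and at -0.28 and -0.15 in WT lines (0.38 ± 0.0884 SE, limma adjusted p = 0.0572). Caldesmon, Cald1, was measured by 5 probe sets that were all positive, from 0.10 to 0.56 (0.33 ± 0.0786 SE, limma adjusted p = 0.0579). Smoothelin, Smtn, a protein of contractile smooth muscle, stood at 0.14 and 0.090 in KO lines and at -0.44 and -0.090 in WT lines (0.38 ± 0.136 SE, limma adjusted p = 0.142). For Smtn the 2 WT lines lay farther apart than KO line 4 lay from WT line 6. Tagln and Cald1 had smaller differences than Acta2, Actg2, Myh11 and Cnn1, a comparison between genes that was not tested.

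**Figure D2:**
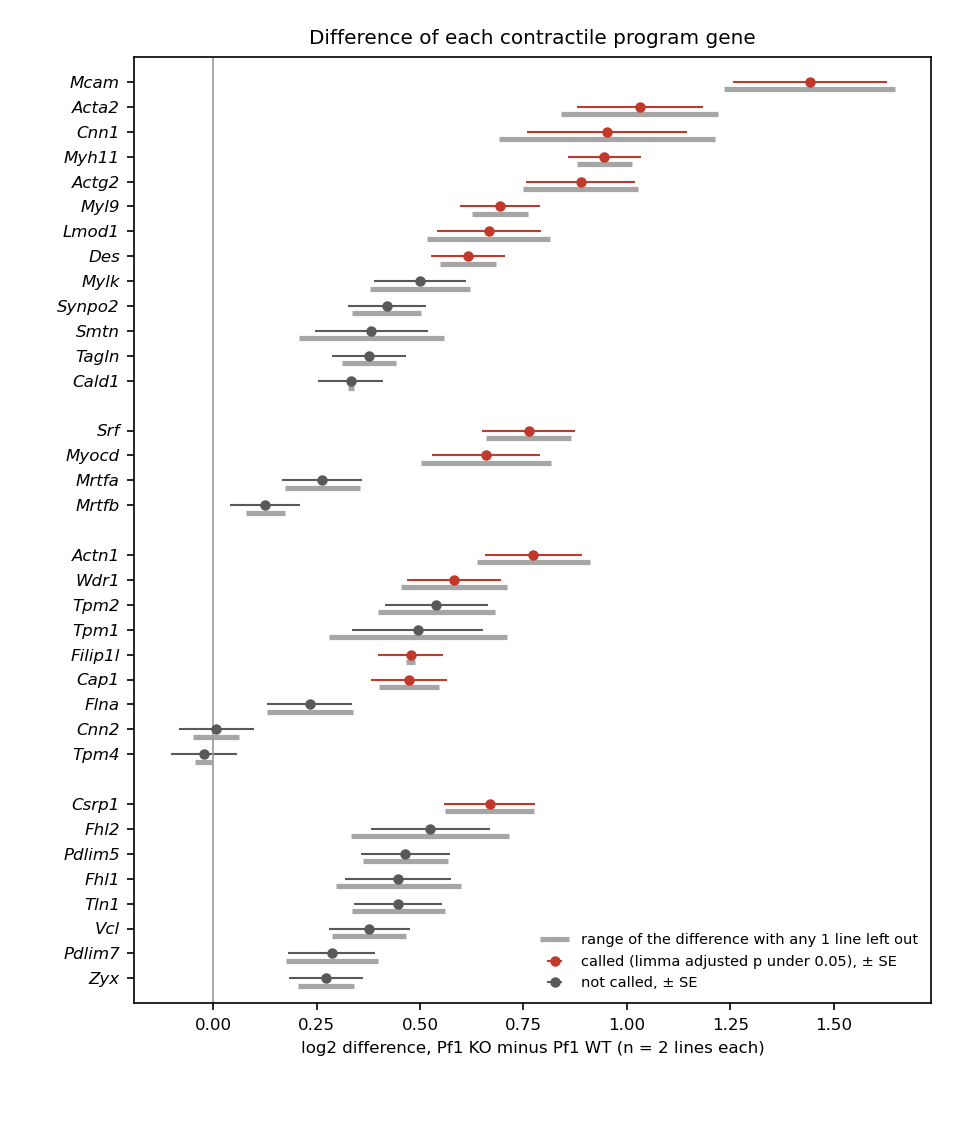
Log2 difference, Pf1 KO minus Pf1 WT, with the SE of the limma fit (n = 2 lines each) for each gene; red marks genes called at a limma adjusted p under 0.05, dark grey the others, and pale bars the range of the difference with any 1 line left out. Of the 34 genes 15 are red, and the pale bars lie right of 0 for all but Cnn2 and Tpm4.

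Among 9 actin filament proteins, 4 rose and 5 did not pass, beside 5.21% of all genes called higher. Both KO lines lay above both WT lines for 7 of the 9, against 28.7% of all genes. Actn1, alpha-actinin, cross-links actin filaments and anchors them at adhesions. It stood at 0.56 and 0.29 in KO lines, against -0.36 and -0.33 in WT lines, and rose 1.71-fold (0.77 ± 0.117 SE, limma adjusted p = 0.0247), with all 3 probe sets positive (0.44 to 1.01). The 2 WT lines nearly coincided, whereas KO line 2 lay above KO line 4. Wdr1, a partner of cofilin in filament disassembly, stood at 0.48 and 0.22 in KO lines and at -0.24 and -0.22 in WT lines (0.58 ± 0.113 SE, limma adjusted p = 0.0379). Cap1, which recycles actin monomers, stood at 0.33 and 0.19 in KO lines and at -0.20 and -0.23 in WT lines (1.39-fold, limma adjusted p = 0.0376). Filip1l, a relative of a filamin-binding protein, stood at 0.23 and 0.25 in KO lines and at -0.23 and -0.25 in WT lines (1.39-fold, limma adjusted p = 0.0285). At Filip1l the lines of each genotype nearly coincided.

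The tropomyosins, which lie along actin filaments and control access of myosin, gave 3 differences of different size, none of which passed. Tpm2 stood at 0.44 and 0.16 in KO lines and at -0.30 and -0.18 in WT lines (0.54 ± 0.125 SE, limma adjusted p = 0.0553), with all 4 probe sets positive. Tpm1 stood at 0.23 and 0.16 in KO lines and at -0.52 and -0.085 in WT lines (0.49 ± 0.158 SE, limma adjusted p = 0.113). Of its 4 probe sets, 1456623_at was called (0.89) and 1447713_at was slightly negative (-0.031). Tpm4 stood at -0.027 and 0.0073 in KO lines and at -0.0073 and 0.034 in WT lines, and so overlapped (-0.023 ± 0.0802 SE, limma adjusted p = 0.895). Filamin A, Flna, another cross-linker of actin, differed by 0.23 ± 0.103 SE (limma adjusted p = 0.215). Cnn2, the calponin of non-muscle cells, stood at 0.046 and -0.046 in KO lines and at -0.063 and 0.049 in WT lines (0.0068 ± 0.0907 SE, limma adjusted p = 0.976). Cnn2 and Tpm4, each with 1 probe set, were the 2 members whose genotypes overlapped.

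Of 8 adhesion and LIM proteins, 1 rose and 7 did not pass, although both KO lines lay above both WT lines for all 8. That order held for 28.7% of all genes, and 5.21% of all genes were called higher. Csrp1, a LIM protein that binds alpha-actinin and zyxin, stood at 0.25 and 0.37 in KO lines, against -0.47 and -0.25 in WT lines, and rose 1.59-fold (0.67 ± 0.110 SE, limma adjusted p = 0.0283). Pdlim5, a LIM protein of actin bundles, was the member with the most probe sets. Of its 7 probe sets, 3 were called, between 0.72 and 0.78, and the other 4 lay between 0.051 and 0.58, so that the mean did not pass (0.46 ± 0.109 SE, limma adjusted p = 0.0566). Talin, Tln1, which connects integrins to actin, stood at 0.19 and 0.16 in KO lines and at -0.38 and -0.16 in WT lines (0.45 ± 0.106 SE, limma adjusted p = 0.0581). Vinculin, Vcl, which strengthens that link, stood at 0.18 and 0.13 in KO lines and at -0.31 and -0.13 in WT lines (0.38 ± 0.0981 SE, limma adjusted p = 0.0718). In both genes WT line 5 lay farthest from the other lines.
Fhl2, a LIM-only coregulator, stood at 0.19 and 0.16 in KO lines and at -0.54 and -0.16 in WT lines (0.52 ± 0.144 SE, limma adjusted p = 0.0801). Its relative Fhl1 differed by 0.45 ± 0.128 SE (limma adjusted p = 0.0876), from probe sets at 0.95 and -0.052. Zyxin, Zyx, a LIM protein of stress fibres, differed by 0.27 ± 0.0896 SE, and Pdlim7 by 0.29 ± 0.105 SE. None of these 4 passed the test. Before adjustment, all 8 proteins of the group were higher at a limma p under 0.05, beside 14.3% of all genes.

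Probe sets of 1 member often gave different sizes. Of the 76 probe sets, 73 had a positive difference, and in a fit over all 45037 probe sets other than controls 25 were called higher and 0 lower, against 3.92% and 4.4% of all probe sets in that fit. Before adjustment, 53 of the 76 were higher and 0 lower at a limma p under 0.05. The share of all probe sets at that unadjusted p was not counted here, and 3.92% and 4.4% are shares of adjusted calls. Of the 21 members with several probe sets, Fhl1 and Tpm1 had 1 with a negative difference. A gene mean therefore averages strong and flat probe sets for Acta2, Myocd, Des, Fhl1, Synpo2 and Pdlim5. Where each probe set lies on its transcript was not analysed here.

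**Figure D3:**
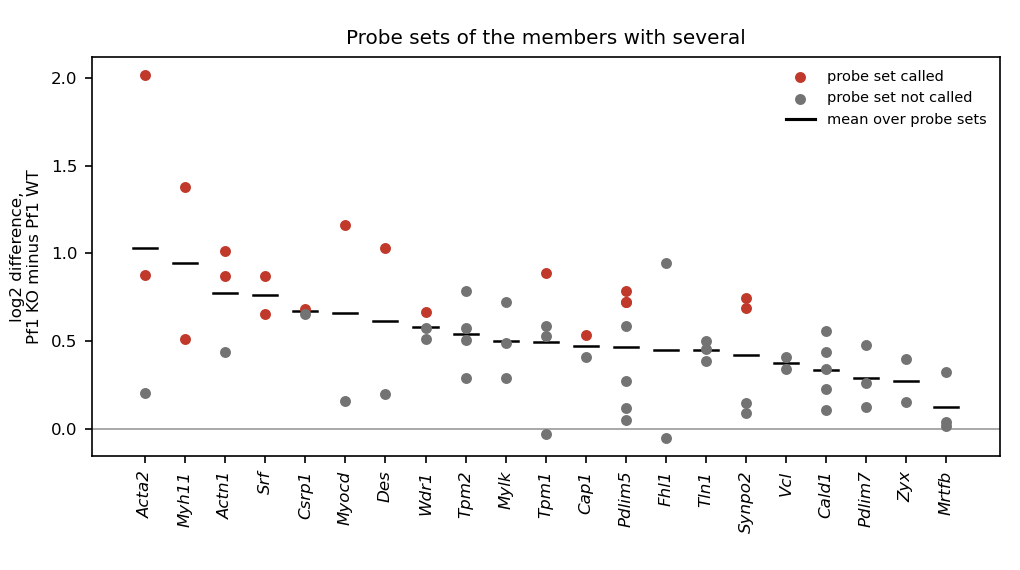
Points are single probe sets of the 21 members measured by more than 1, as log2 difference Pf1 KO minus Pf1 WT; red points were called in the fit over all probe sets, grey points were not, and the black bar is the gene's mean. Acta2 spans 0.21 to 2.02, and Fhl1 and Tpm1 each have 1 point below 0.

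The lines of 1 genotype also differed from each other along the program. KO line 2 lay above KO line 4 at 26 of 34 members (76.5%, against 51.9% of all genes), and WT line 5 lay below WT line 6 at 27 of 34 (79.4%, against 51.5%). The median value of the members was 0.26 and 0.16 in KO lines 2 and 4, against -0.32 and -0.19 in WT lines 5 and 6. KO line 2 and WT line 5 were thus the 2 ends of the program. The order was not particular to the members. For 48 other targets of Srf or parts of the actin program, counted below, the shares were 77.1% and 72.9%. For 13 fibroblast markers, with a median difference of -0.73, they were 30.8% and 15.4%. The standard deviation over all probe sets was 0.244 and 0.202 in KO lines 2 and 4, and 0.272 and 0.235 in WT lines 5 and 6. The median absolute distance over the members was 0.13 between the KO lines and 0.12 between the WT lines, beside the median difference of 0.49 between the genotypes. Exceptions among the members were Actg2, Csrp1 and Des, where KO line 4 was the higher KO line by more than 0.1.

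Genes of the same pathway outside the list were counted next. Of 48 other targets of Srf or parts of the actin program, 12 rose, 3 fell and 33 did not pass, with a median difference of 0.25. The share called higher was 25%, against 5.21% of all genes, and 6.95% of all genes were called lower. Acta1, skeletal muscle alpha-actin, stood at 1.75 and 1.32 in KO lines and at -1.87 and -1.32 in WT lines (3.14 ± 0.233 SE, limma adjusted p = 0.0110). Ankrd1, an ankyrin repeat protein of stretched muscle, stood at 0.70 and 0.60 in KO lines and at -0.83 and -0.60 in WT lines (1.36 ± 0.111 SE). Hspb1, a small heat shock protein that binds actin, rose by 0.85 ± 0.0830 SE. The LIM protein Crip1 went the other way, at -0.59 and -0.56 in KO lines and 0.64 and 0.56 in WT lines (-1.17 ± 0.0832 SE, limma adjusted p = 0.0103). The LIM proteins Pdlim2 (-0.80 ± 0.0885 SE) and Csrp2 (-0.91 ± 0.182 SE), a relative of Csrp1, were the others that fell.
Srf also drives immediate early genes with another class of cofactors, the ternary complex factors. A list of 17 genes held immediate early genes and 3 of these factors themselves, Elk1, Elk3 and Elk4. Of the 17, the phosphatase gene Dusp1 rose (1.06 ± 0.180 SE, limma adjusted p = 0.0304), the transcription factor gene Egr1 fell (-0.61 ± 0.128 SE, limma adjusted p = 0.0451) and 15 did not pass. Dusp5 (0.76 ± 0.170 SE, limma adjusted p = 0.0523) and Junb (0.36 ± 0.0879 SE, limma adjusted p = 0.0635) were among those 15, as were Elk1 (0.041), Elk3 (0.16) and Elk4 (-0.034). The median difference of the 17 genes was -0.0099, beside 0.49 for the contractile members and -0.0027 for all genes. The share of the 17 called higher, 5.88%, was near the 5.21% of all genes, and the 1 that fell stands beside 6.95% of all genes.

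Markers of other cell types that a torso culture could hold were measured beside the program. Their counts stand beside 5.21% of all genes called higher and 6.95% called lower. Counts before adjustment stand beside 2603 of 18193 genes that were higher (14.3%) and 2765 that were lower at a limma p under 0.05. Of 8 pericyte markers, 4 fell and 0 rose (limma, 2 higher at p under 0.05 before adjustment), with list medians of -0.13 and -0.23 in KO lines and 0.17 and 0.23 in WT lines. Notch3, a receptor of mural cells, fell by 1.02 on the log2 scale, and Anpep, Pdgfrb and Higd1b also fell, while Rgs5 stood at 1.17 ± 0.306 SE (limma adjusted p = 0.0720). Kcnj8 was also higher without passing (0.30 ± 0.110 SE, limma adjusted p = 0.154). Mcam, which pericytes share with smooth muscle, moved opposite to the 4 pericyte markers that were called. It moved in the same direction as Rgs5 and Kcnj8, so the list was split. Of 16 skeletal muscle markers limma called 0, with 1 at an unadjusted p under 0.05, and the list medians lay between -0.027 and 0.017 in all 4 lines. Of 12 cardiac markers, 3 rose: the natriuretic peptide Nppb (1.34 ± 0.168 SE), Tnnt2, cardiac troponin T (1.05 ± 0.140 SE), and the atrial light chain Myl7 (1.96 ± 0.271 SE). The cardiac transcription factor gene Nkx2-5 stood at -0.045 (limma adjusted p = 0.820), and the list medians were 0.029 and 0.050 in KO lines and -0.0065 and -0.016 in WT lines.
Of 13 fibroblast markers, 7 fell and 0 rose (limma, 9 lower and 0 higher at p under 0.05 before adjustment), with list medians of -0.41 and -0.37 in KO lines and 0.63 and 0.31 in WT lines. Col1a1, a chain of type I collagen, fell by 0.96 on the log2 scale, and Pdgfra, the alpha receptor for platelet-derived growth factor, fell by 2.17. Macrophage markers had medians of -0.27 and 0.47 in KO lines and 0.37 and -1.14 in WT lines, and limma called 0 of 10, with 0 at an unadjusted p under 0.05. Markers of simple epithelium were mixed: of 9, Krt8 and Cldn4 rose, Krt19 fell and 6 did not pass. Before adjustment 4 were higher and 1 lower at a limma p under 0.05. The difference was positive for 6 of the 9, against 49.2% of all genes, and negative for Krt19, Epcam (-0.13) and Esrp1 (-0.16). The medians of the epithelial list were 0.11 and 0.14 in KO lines and -0.15 and -0.11 in WT lines, with a median difference of 0.31. The keratin gene Krt8 rose 5.33-fold and the claudin gene Cldn4 3.16-fold, while Krt18, the partner keratin of Krt8, stood at 1.60 ± 0.401 SE (3.03-fold, limma adjusted p = 0.0659). Each of these 3 folds was above the 2.72-fold of Mcam. Of 9 endothelial markers 1 rose (Emcn) and 1 fell (Tek), beside 5.21% and 6.95% of all genes. The endothelial list medians were 0.030 and -0.012 in KO lines and 0.081 and -0.060 in WT lines. Centred values cannot show which of these markers were at background, and their part in the rise of the contractile members was not tested.

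**Figure D4:**
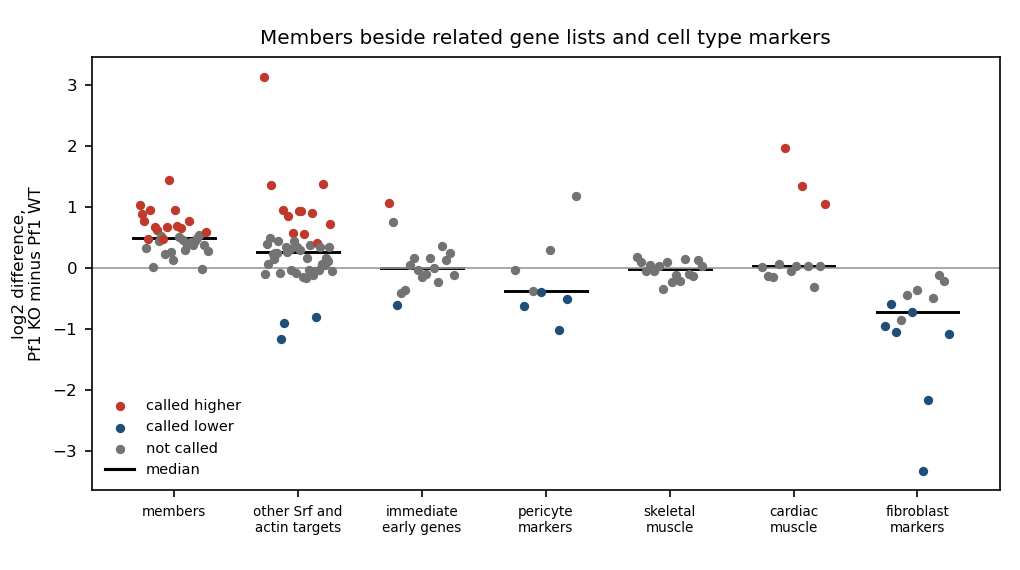
Points are genes, as log2 difference Pf1 KO minus Pf1 WT, for the 34 members and for related lists and cell type markers; red points were called higher, blue points lower, grey points not called, and black bars are medians. The members' median is 0.49, that of the skeletal muscle markers -0.011 and that of the fibroblast markers -0.73.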

How the data were processed

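Total RNA of 4 fibroblast lines was measured on 1 Affymetrix array each. The authors deposited log2 values made with Affymetrix Expression Console and RMA, per the submitters' processing notes, which name no versions. RMA corrects background, normalises arrays by quantiles and summarises each probe set. In the deposited table the median over the 4 arrays was 0 within 1e-06 for 100% of 45101 probe sets, a centring that the labels do not describe and that removes signal levels. Signal over background was not used, and precision is limited by the number of arrays.

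The table matched the annotation of a larger Affymetrix mouse array than the design text names, and that annotation was used for gene names: 34958 had 1 gene and 932 had several; those with several were left out, as were 64 controls. Probe sets of a gene were averaged, giving 18193 genes. Pf1 KO minus Pf1 WT was tested in limma 3.58.1 (lmFit, eBayes; R 4.3.3; 2 residual and 3.04 prior degrees of freedom, no covariates), with Benjamini-Hochberg adjustment over all genes. The fit was tested on simulated data. Alternatives were a second quantile normalisation, the median over probe sets, plain probe sets (suffix _at without _s, _x or _a), array weights, a robust prior, each probe set by itself, and each line left out.

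Named genes were all members, Phf12, up to 4 genes with the smallest p of each related list, and marker genes. Pdlim2, Csrp2, the 3 Elk genes, marker genes beyond the 4 smallest p of their list, and Xist and Eif2s3y were chosen after their values were seen. The members and lists were chosen with earlier results of these data known, and so was the CArG search. Promoter windows are those of RefSeq, assembly GRCm38.p6. Another planned gene list is not reported here.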

Additional observations from a re-analysis of the deposited data

How the results depend on the processing

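With 1 line left out, the number of members called higher lay between 0 and 2, and of members called lower at 0. The median member difference then lay between 0.42 and 0.57, and that of Phf12 between -0.50 and -0.34. Other Srf and actin targets were called higher at 0 to 4 genes and lower at 0 to 1, and the immediate early list higher at 0 to 1 and lower at 0. Fewer residual degrees of freedom remain in these fits. A second quantile normalisation, the median over probe sets, plain probe sets, array weights and a robust prior kept the called members above the threshold wherever they were measured (72 of 72 comparisons of a called member with an alternative). With plain probe sets 29 members were measured. The second quantile normalisation also called Tagln, Mylk, Tpm2, Synpo2, Pdlim5 and Tln1, and raised the called share of all genes (6.41% higher). Mylk and Synpo2 were also called with the median over probe sets and with the robust prior, and Cald1 with plain probe sets. Cnn2 changed sign after the second quantile normalisation (-0.0050), without KO line 2 (-0.039) and without WT line 5 (-0.049), and reached 0.063 without WT line 6. Tpm1 did so at probe set 1447713_at (-0.031) and Fhl1 at 1459003_at (-0.052). Immediate early genes called higher numbered 2 after the second quantile normalisation, with array weights and with the robust prior. Phf12 passed the threshold after the second quantile normalisation (-0.41, limma adjusted p = 0.0372), with array weights (-0.42, limma adjusted p = 0.0481) and with the robust prior (-0.42, limma adjusted p = 0.0470). The cause of these changes was not tested. No paired analysis was possible because the lines of the KO and WT genotypes share no number.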

Other observations

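A second short element was counted in the same promoter windows after the values had been seen. CATTCC, the core of the MCAT element that Tead factors bind in muscle genes, was searched on both strands. It was searched separately from the CArG box, and the 2 patterns can share bases. It was present in 9 of 30 matched members (Acta2, Cald1, Flna, Lmod1, Mrtfb, Mylk, Smtn, Tpm1 and Vcl), which is 30%, and in 16.58% of all genes of the table. By window, it was present in 23.1% of the 39 member windows and in 14.66% of all windows. Of these 9 members, 2 rose in the knockout, Acta2 and Lmod1, and of the 21 matched members without the element, 10 rose. Among all measured genes, 5.21% were called higher, and whether members with and without the element differed was not tested. Vcl was the member that held both this element and an exact CArG box. The CArG form with 1 G or C in its core was present in 3 members (Acta2, Mrtfa and Myl9), 10.0% of those matched, beside 9.69% of all genes.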
